A study of Homo sapiens with 7 samples.

Results

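Ribosome biogenesis factors are the nucleolar proteins that transcribe, modify, cut and fold ribosomal RNA and build it, with ribosomal proteins, into the small (40S) and large (60S) subunits. They were described here as 40 genes of 23710 in the expression table, listed by symbol, and all 40 were present and passed the minimum mean normalized count of 50. The cells were SNU398, an established human hepatocellular carcinoma line, and each RNA library came from cells given 30 µM of 1 peptide for 8 hours. There were 4 groups of 1 library each, namely PEN-FFW, PEN-WT, PEN-MUT, and the carrier alone (PEN). PEN is penetratin, a cell-penetrating carrier. The study is known to have linked penetratin to a stretch of SALL4, a zinc finger transcription factor, that binds the NuRD subunit RBBP4 (PEN-WT), to an engineered version of it (PEN-FFW) and to a mutated control version (PEN-MUT). All 4 groups thus received the carrier, and no library came from cells without peptide.

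Ribosome production starts in the nucleolus, where RNA polymerase I copies ribosomal DNA into 1 long precursor. Small nucleolar ribonucleoproteins (snoRNPs) guide its chemical modification, and large assemblies such as the small subunit processome cut it apart while ribosomal proteins bind. Many of these genes are known targets of the transcription factor MYC, which binds the E-box CACGTG, and growing tumour cells usually express them at high levels.

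Each difference is that of log2(normalized count + 10) between 2 libraries, with the median over 12578 tested genes in that pair subtracted. The value after ± is the standard error from read counting alone, and intervals are 95% counting intervals. With 1 library per peptide no difference has a replicate check, no test between peptides could be run, and cultures vary by an amount that these intervals do not hold. In bulk RNA, fewer cells of a kind and less RNA per cell cannot be told apart. Reads in genes above the deposited floor numbered 27347377 under PEN-FFW, 40717633 under PEN-WT, 32043544 under PEN-MUT and 37784093 under PEN. Of 10 hepatocyte and fetal liver markers, 6 (TTR, APOB, SERPINA1, FGB, TF and HNF4A) were at the floor in every library, as were 2 of 4 epithelial markers (KRT8 and KRT18), 2 of 4 blood markers (CD3E and HBB) and both endothelial markers. The liver list summed to between 1129 and 1479 normalized counts, the epithelial list to between 726 and 1115 and the blood list to between 533 and 666. None of 4 fibroblast markers was at the floor, and that list summed to between 1684 and 2410.

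Promoter sequences are shown first as a description, and a part of MYC or of any other factor in the members' levels was not tested. RefSeq promoter windows (GRCh38.p14), from 250 bases before to 50 bases after a start site, were available for 33 members. Those below belong to NOP16, the member farthest below PEN under PEN-FFW, to GAR1, LYAR and WDR43, the lowest 3 whose windows held CACGTG, and to POLR1A, the member nearest to PEN. Capitals mark CACGTG in GAR1, LYAR and WDR43, and in NOP16 they mark CCGGAAG, the core of ETS factor sites, read on both strands in 2 overlapping copies.
NOP16, chr5:176388549-176388848, minus strand: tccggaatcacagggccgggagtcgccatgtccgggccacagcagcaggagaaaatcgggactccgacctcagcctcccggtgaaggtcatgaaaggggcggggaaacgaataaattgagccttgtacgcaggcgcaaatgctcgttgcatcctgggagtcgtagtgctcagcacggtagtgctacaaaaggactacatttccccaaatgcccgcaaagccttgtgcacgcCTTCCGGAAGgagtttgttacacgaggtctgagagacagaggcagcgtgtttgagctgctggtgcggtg
GAR1 (second of its windows), chr4:109815512-109815811, plus strand: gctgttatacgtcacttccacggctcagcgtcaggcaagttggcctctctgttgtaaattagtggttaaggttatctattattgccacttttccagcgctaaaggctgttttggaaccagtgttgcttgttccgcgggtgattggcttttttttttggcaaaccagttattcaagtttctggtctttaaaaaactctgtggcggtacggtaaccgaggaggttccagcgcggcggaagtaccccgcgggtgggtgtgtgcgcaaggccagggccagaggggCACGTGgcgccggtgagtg
LYAR (second of its windows), chr4:4289972-4290271, minus strand: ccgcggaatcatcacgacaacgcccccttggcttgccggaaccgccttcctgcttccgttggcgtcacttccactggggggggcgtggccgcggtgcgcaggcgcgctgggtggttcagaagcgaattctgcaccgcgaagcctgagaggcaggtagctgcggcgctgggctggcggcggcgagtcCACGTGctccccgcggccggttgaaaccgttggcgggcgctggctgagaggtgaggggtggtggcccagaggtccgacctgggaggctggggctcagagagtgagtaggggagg
WDR43, chr2:28894417-28894716, plus strand: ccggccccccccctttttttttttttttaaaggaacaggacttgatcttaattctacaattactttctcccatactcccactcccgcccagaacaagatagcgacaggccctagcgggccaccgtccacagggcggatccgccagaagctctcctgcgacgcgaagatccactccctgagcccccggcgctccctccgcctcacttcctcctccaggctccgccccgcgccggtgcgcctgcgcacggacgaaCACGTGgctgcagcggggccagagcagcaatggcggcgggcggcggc
POLR1A, chr2:86105837-86106136, minus strand: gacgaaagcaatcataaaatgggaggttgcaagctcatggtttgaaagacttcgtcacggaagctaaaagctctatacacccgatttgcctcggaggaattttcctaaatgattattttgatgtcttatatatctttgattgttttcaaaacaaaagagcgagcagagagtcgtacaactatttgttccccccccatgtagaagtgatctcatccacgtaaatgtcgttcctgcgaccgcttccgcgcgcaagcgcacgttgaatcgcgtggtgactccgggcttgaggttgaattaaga
The POLR1A window held none of the 4 motifs searched, which were the E-box CACGTG, the ETS core CCGGAAG, the letters TCGCGAG known from BANP sites and the letters GCGCATG known from NRF1 sites, each on both strands. CACGTG begins 64 bases before the start site in the LYAR window, at base 4 after it in WDR43 and at base 32 after it in GAR1.

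CACGTG was more frequent in these promoters than in those of tested genes as a whole. It was found in 15 of the 33 members (45.5%), against 12.8% of tested genes with a promoter. By window, 35.7% of the members' 42 windows held it, against 9.43% of the windows of tested genes and 7.26% of all 35116 windows in the RefSeq table. TCGCGAG was in 16.7% of the members' windows, against 4.13% of tested and 2.35% of all windows. CCGGAAG was in 28.6%, against 17.1% of tested and 10.3% of all windows. GCGCATG was in 7.14%, close to the 6.81% of tested windows, with 4.43% of all windows. The 15 members with CACGTG had a median difference of -0.37 between PEN-FFW and PEN, and the 18 without it a median of -0.43. These matches are descriptions of letters in a window and do not show that a factor was bound.

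Set against PEN and relative to the median gene, all 40 members were lower under PEN-FFW, 39 under PEN-WT and 39 under PEN-MUT, where 50% of tested genes lie below the median gene by construction. The median member stood at -0.38 under PEN-FFW, -0.29 under PEN-WT and -0.24 under PEN-MUT, while the median over all tested genes is 0. At least 20% lower than PEN relative to the median gene (a difference of -0.32 or below) were 25 members under PEN-FFW, against 5.67% of tested genes. Under PEN-WT there were 14, against 3.53%, and under PEN-MUT 4, against 3.14%. By role, the 25 were 2 of 6 genes of ribosomal DNA transcription, 4 of 7 snoRNP proteins, 7 of 10 small subunit factors, 9 of 13 large subunit factors and 3 of 4 abundant nucleolar proteins. None of the 40 was 25% higher in any of the 6 pairs of libraries. Of the 12578 tested genes, 2140 (17.0%) were so in PEN-FFW against PEN, 746 in PEN-WT against PEN and 284 in PEN-MUT against PEN. In the pairs without PEN, 2079 were so in PEN-FFW against PEN-MUT, 1405 in PEN-FFW against PEN-WT and 700 in PEN-WT against PEN-MUT. Where few tested genes were higher, as in PEN-MUT against PEN, the absence of members says little. The 3 comparisons with PEN share that library, so a feature of the PEN library alone would enter each of them.

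**Figure D1:**
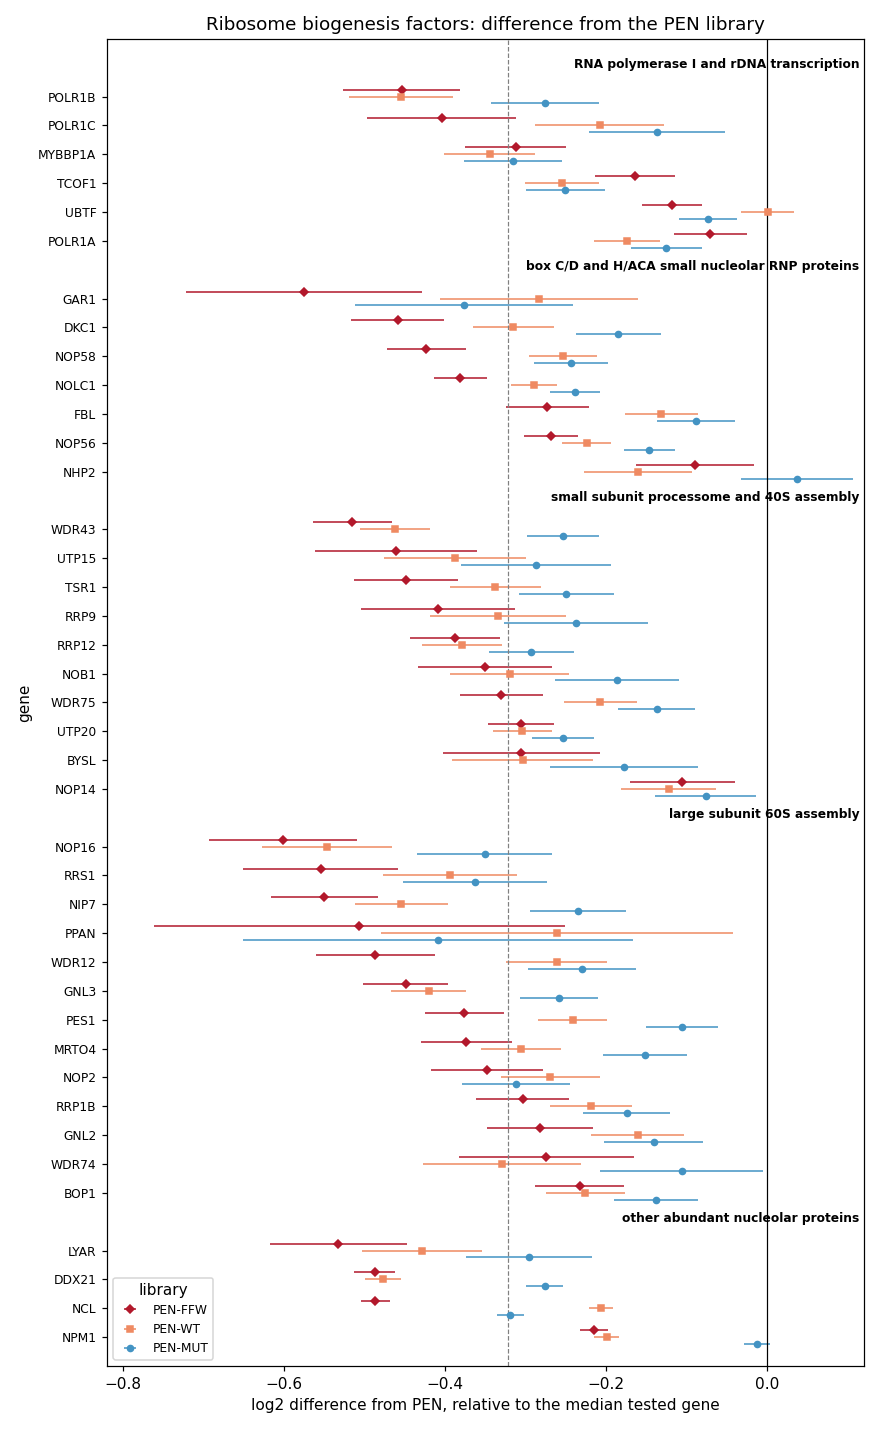
Log2 difference of each of the 40 factors to the PEN library, with the median tested gene at 0, for PEN-FFW as diamonds, PEN-WT as squares and PEN-MUT as circles, 1 library each, grouped by role; bars are 95% counting intervals and the dashed line marks 20% lower. PEN-FFW ranges from -0.60 (NOP16) to -0.07 (POLR1A), and only UBTF under PEN-WT and NHP2 under PEN-MUT lie at or above the median gene.

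The pooled share of reads gives the same order of libraries without any scaling by genes. The 40 factors held 0.883% of reads under PEN-FFW, 0.923% under PEN-WT, 0.951% under PEN-MUT and 1.08% under PEN. A few members weigh heavily in this share. Of 241485 member reads under PEN-FFW, NPM1 held 44123, NCL 38436 and DDX21 19005. The share also depends on the reads of all other genes. By member and relative to the median gene, 38 were highest under PEN of the 4 libraries, against 26.3% of tested genes, and the exceptions were UBTF and NHP2. The lowest library was PEN-FFW for 33 members, against 35.4% of tested genes. The full order, PEN-FFW below PEN-WT below PEN-MUT below PEN, held for 28 members and for 11.8% of tested genes. It takes no account of counting error. Nor does it allow for the members' higher counts. Relative to genes of the same mean normalized count, 24 of the 40 were lower under PEN-FFW than under PEN-WT. By that setting 30 were lower under PEN-FFW than under PEN-MUT, and 28 under PEN-WT than under PEN-MUT. The lowest library and the full order were not recounted in that setting. The counting interval held 0 for 17 members between PEN-FFW and PEN-WT and for 16 between PEN-WT and PEN-MUT. By value, the full order held for 9 of 10 factors of the small subunit and for 10 of 13 of the large subunit. It held for 1 of 6 factors of ribosomal DNA transcription.

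**Figure D2:**
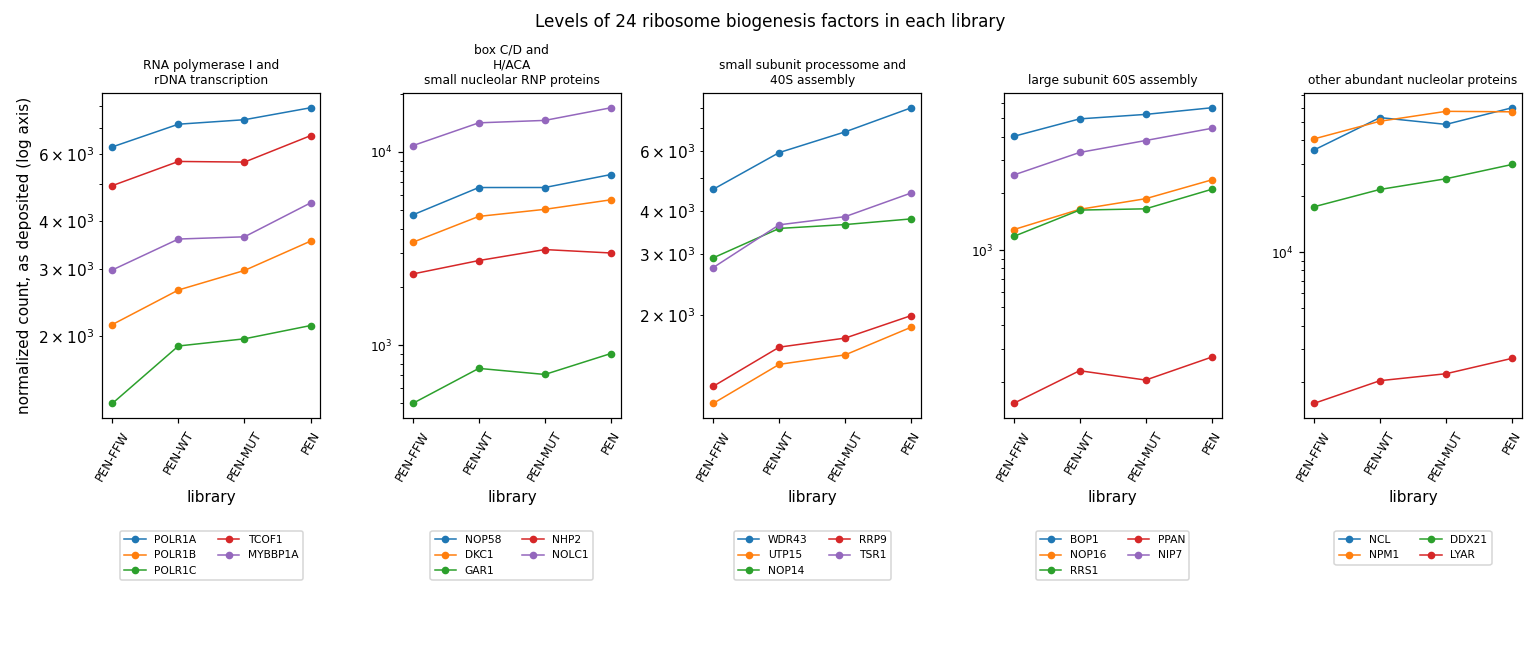
Normalized counts as deposited (log axes) of the 24 factors described one by one, under PEN-FFW, PEN-WT, PEN-MUT and PEN, with 1 panel per role and 1 point per library. Every line is lowest under PEN-FFW, and all but that of NPM1 and NHP2 are highest under PEN; the median tested gene of PEN-FFW stood at -0.27 from PEN on the log2 scale as deposited.

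Relative to the median gene, RNA polymerase I and its ribosomal DNA factors were the role least below PEN under PEN-FFW. Their median was -0.24 over 6 genes, with a wide spread. Relative to the same GC content, POLR1A stood at -0.09, UBTF at -0.17, TCOF1 at -0.27, POLR1B and POLR1C at -0.38 and MYBBP1A at -0.49. Medians by role were not computed in that setting, so the ranking of roles is given relative to the median gene only. POLR1B, the second-largest subunit (GRCh37 chromosome 2, 113299492 to 113337395, plus strand), had 2142 normalized counts under PEN-FFW, 2638 under PEN-WT, 2969 under PEN-MUT and 3544 under PEN. POLR1C, a subunit shared with RNA polymerase III, had 1330 under PEN-FFW, 1882 under PEN-WT, 1965 under PEN-MUT and 2129 under PEN. Relative to the median gene POLR1B was as low under PEN-WT (-0.45 ± 0.03) as under PEN-FFW (-0.45 ± 0.04), whereas POLR1C was lower under PEN-FFW (-0.40 ± 0.05) than under PEN-WT (-0.21 ± 0.04). POLR1A, the largest and catalytic subunit (chromosome 2, 86247339 to 86333278, minus strand), had 6261 under PEN-FFW, 7180 under PEN-WT, 7378 under PEN-MUT and 7930 under PEN, or -0.07 ± 0.02 under PEN-FFW against PEN. POLR1B and POLR1A were apart by more than counting error under each peptide. The difference from PEN of POLR1B minus that of POLR1A was -0.38 (interval -0.47 to -0.30) under PEN-FFW, -0.28 (-0.36 to -0.20) under PEN-WT and -0.15 (-0.23 to -0.07) under PEN-MUT. The difference of POLR1C minus that of POLR1A was -0.33 (-0.44 to -0.23) under PEN-FFW, but its interval held 0 under PEN-WT (-0.12 to 0.06) and under PEN-MUT (-0.11 to 0.08).

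Of the factors that act on ribosomal DNA, MYBBP1A, a nucleolar protein that binds MYB, had 2978 normalized counts under PEN-FFW, 3589 under PEN-WT, 3638 under PEN-MUT and 4464 under PEN. Relative to the median gene its differences from PEN were nearly equal, at -0.31 under PEN-FFW, -0.34 under PEN-WT and -0.32 under PEN-MUT (each ± 0.03). Relative to the same GC content, MYBBP1A stood at -0.49 under PEN-FFW against PEN, and PEN-FFW was then lower than PEN-MUT (-0.13) and PEN-WT (-0.05). TCOF1 codes for treacle, which promotes ribosomal DNA transcription and is mutated in Treacher Collins syndrome. It had 4956 under PEN-FFW, 5734 under PEN-WT, 5712 under PEN-MUT and 6699 under PEN. Relative to the median gene it was nearer to PEN under PEN-FFW (-0.16 ± 0.03) than under PEN-WT or PEN-MUT (both -0.25 ± 0.02). Relative to the same GC content, TCOF1 stood at -0.27 under PEN-FFW against PEN and at -0.005 against PEN-MUT. UBTF, which binds ribosomal DNA and brings in RNA polymerase I, was at -0.12 ± 0.02 under PEN-FFW, 0.00 ± 0.02 under PEN-WT and -0.07 ± 0.02 under PEN-MUT.

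The proteins of the snoRNPs had medians of -0.38 under PEN-FFW, -0.25 under PEN-WT and -0.18 under PEN-MUT over 7 genes. GAR1, a core protein of the H/ACA particles that turn uridine into pseudouridine (chromosome 4, 110736666 to 110745896, plus strand), had 499 normalized counts under PEN-FFW, 757 under PEN-WT, 704 under PEN-MUT and 904 under PEN. DKC1, the pseudouridine synthase of the same particles, had 3402 under PEN-FFW, 4633 under PEN-WT, 5040 under PEN-MUT and 5646 under PEN. GAR1 stood at -0.58 ± 0.07 and DKC1 at -0.46 ± 0.03 under PEN-FFW against PEN. NHP2, their partner in the particle, was nearer to PEN, with 2332 under PEN-FFW, 2737 under PEN-WT, 3120 under PEN-MUT and 2995 under PEN, or -0.09 ± 0.04 under PEN-FFW. The difference of GAR1 minus that of NHP2 was -0.49 (interval -0.65 to -0.32) under PEN-FFW, -0.12 (-0.26 to 0.02) under PEN-WT and -0.41 (-0.57 to -0.26) under PEN-MUT.

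Box C/D particles, which methylate ribosomal RNA, showed a smaller spread. NOP58, a scaffold protein, had 4715 normalized counts under PEN-FFW, 6536 under PEN-WT, 6538 under PEN-MUT and 7630 under PEN (-0.42 ± 0.03 under PEN-FFW). Its paralogue NOP56 and the methyltransferase FBL were both at -0.27 under PEN-FFW, and the difference of NOP58 minus that of FBL was -0.15 (-0.22 to -0.08). NOLC1, a chaperone of both kinds of particle, had 10765 under PEN-FFW, 14132 under PEN-WT, 14548 under PEN-MUT and 16912 under PEN, or -0.38 ± 0.02 under PEN-FFW. DKC1 and NOLC1 kept the full order of the 4 libraries relative to the median gene. Relative to genes of the same mean normalized count NOLC1 did not, at 0.03 in PEN-FFW and 0.02 in PEN-WT against PEN-MUT. NOP58 kept the order by value only, since PEN-WT and PEN-MUT were level (-0.0009, interval -0.05 to 0.05). GAR1 was lower under PEN-MUT than under PEN-WT, but the interval of PEN-WT against PEN-MUT held 0 (-0.04 to 0.24).

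Small subunit factors had medians of -0.37 under PEN-FFW, -0.33 under PEN-WT and -0.24 under PEN-MUT over 10 genes. By value they kept the order of the libraries most often. Between PEN-FFW and PEN-WT, though, the interval held 0 for 7 of the 10, and between PEN-WT and PEN-MUT for 3. WDR43, which joins the processome early (chromosome 2, 29117533 to 29171085, plus strand), had 4638 normalized counts under PEN-FFW, 5930 under PEN-WT, 6813 under PEN-MUT and 8002 under PEN. Its difference from PEN was -0.52 ± 0.03 under PEN-FFW and -0.46 ± 0.02 under PEN-WT, lower than all but 0.803% and 0.93% of tested genes. UTP15, a partner of WDR43 in the same subcomplex, had 1108 under PEN-FFW, 1438 under PEN-WT, 1533 under PEN-MUT and 1845 under PEN (-0.46 ± 0.05 under PEN-FFW). TSR1, which acts late on the particle, had 2747 under PEN-FFW, 3658 under PEN-WT, 3864 under PEN-MUT and 4527 under PEN (-0.45 ± 0.03 under PEN-FFW).

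RRP9, a protein of the U3 snoRNP, had 1242 normalized counts under PEN-FFW, 1614 under PEN-WT, 1715 under PEN-MUT and 1994 under PEN (-0.41 ± 0.05 under PEN-FFW). NOP14 was the small subunit factor nearest to PEN, with 2932 under PEN-FFW, 3571 under PEN-WT, 3664 under PEN-MUT and 3806 under PEN (-0.10 ± 0.03 under PEN-FFW). WDR43, UTP15, TSR1 and RRP9 kept the full order of the libraries by value, and NOP14 did not. For UTP15 the interval held 0 between PEN-FFW and PEN-WT (-0.18 to 0.03) and between PEN-WT and PEN-MUT (-0.19 to 0.01). For RRP9 these intervals were -0.17 to 0.02 and -0.18 to 0.004. The other 5 were WDR75 and UTP20 of the processome, BYSL and RRP12 of later maturation, and NOB1, the nuclease of the last cut. They lay between -0.39 (RRP12) and -0.31 (UTP20 and BYSL) under PEN-FFW, between -0.38 (RRP12) and -0.21 (WDR75) under PEN-WT, and between -0.29 (RRP12) and -0.14 (WDR75) under PEN-MUT.

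Large subunit factors had medians of -0.38 under PEN-FFW, -0.27 under PEN-WT and -0.23 under PEN-MUT over 13 genes and included the lowest member. NOP16 (chromosome 5, 175810949 to 175815928, minus strand), a nucleolar protein of early large subunit particles, had 1284 normalized counts under PEN-FFW, 1646 under PEN-WT, 1874 under PEN-MUT and 2357 under PEN. Against PEN it stood at -0.60 ± 0.05 under PEN-FFW, -0.55 ± 0.04 under PEN-WT and -0.35 ± 0.04 under PEN-MUT. RRS1, which helps load the ribonucleoprotein of the smallest ribosomal RNA, had 1182 under PEN-FFW, 1631 under PEN-WT, 1656 under PEN-MUT and 2101 under PEN (-0.55 ± 0.05 under PEN-FFW). NIP7, needed for precursor processing, had 2500.0 under PEN-FFW, 3294 under PEN-WT, 3811 under PEN-MUT and 4421 under PEN (-0.55 ± 0.03 under PEN-FFW). All 3 genes were lowest under PEN-FFW, then PEN-WT, then PEN-MUT by value. The interval held 0 for NOP16 between PEN-FFW and PEN-WT (-0.15 to 0.04) and for RRS1 between PEN-WT and PEN-MUT (-0.11 to 0.07). NIP7 was also the member lowest under PEN-FFW against PEN-MUT, at -0.31 (interval -0.38 to -0.24).

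PPAN had the fewest counts, 154 under PEN-FFW, 230 under PEN-WT, 205 under PEN-MUT and 271 under PEN, and the widest error (-0.51 ± 0.13 under PEN-FFW). It overlaps P2RY11 and a read-through transcript on the same strand, so its reads cannot be assigned to PPAN alone. BOP1, PES1 and WDR12 form the PeBoW complex of large subunit maturation. BOP1 had 4007 under PEN-FFW, 4962 under PEN-WT, 5241 under PEN-MUT and 5683 under PEN. Relative to the median gene under PEN-FFW, BOP1 was at -0.23 ± 0.03, PES1 at -0.38 ± 0.02 and WDR12 at -0.49 ± 0.04. Under PEN-WT these 3 partners lay close together, with BOP1 at -0.23, PES1 at -0.24 and WDR12 at -0.26. The order of PES1 and WDR12 under PEN-FFW depended on the setting. Relative to the same GC content PES1 stood at -0.46 and WDR12 at -0.40, and BOP1 had no GC value. The nucleolar GTPase GNL3 (nucleostemin) was at -0.45 under PEN-FFW, MRTO4, of ribosomal stalk assembly, at -0.37, the methyltransferase NOP2 at -0.35, RRP1B at -0.30, the GTPase GNL2 at -0.28 and WDR74 at -0.27. Under PEN-WT these 6 lay between -0.42 (GNL3) and -0.16 (GNL2), and under PEN-MUT between -0.31 (NOP2) and -0.11 (WDR74).

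The abundant nucleolar proteins included the members with the most counts. NCL codes for nucleolin, a histone-binding RNA chaperone (chromosome 2, 232318242 to 232348352, minus strand). It had 35484 normalized counts under PEN-FFW, 53077 under PEN-WT, 48786 under PEN-MUT and 59959 under PEN. NPM1 codes for nucleophosmin, a scaffold of the granular nucleolus, and had 40734 under PEN-FFW, 50729 under PEN-WT, 57365 under PEN-MUT and 57024 under PEN. These genes ordered the libraries differently: NCL was lower under PEN-MUT (-0.32 ± 0.01 from PEN) than under PEN-WT (-0.21 ± 0.01), while NPM1 was at the median gene under PEN-MUT (-0.01 ± 0.01) and at -0.20 ± 0.01 under PEN-WT. NPM1 has 49 named pseudogenes in the annotation, and reads shared with them could not be separated.

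DDX21, an RNA helicase that acts on ribosomal RNA transcription and processing, had 17545 normalized counts under PEN-FFW, 21763 under PEN-WT, 24857 under PEN-MUT and 29668 under PEN. Its difference from PEN was -0.49 ± 0.01 under PEN-FFW and -0.48 ± 0.01 under PEN-WT. LYAR, a nucleolar zinc finger protein of cell growth, had 1530 under PEN-FFW, 2028 under PEN-WT, 2211 under PEN-MUT and 2676 under PEN (-0.53 ± 0.04 under PEN-FFW). LYAR and DDX21 both kept the full order of the libraries relative to the median gene, although DDX21 differed little between PEN-FFW and PEN-WT. Relative to genes of the same mean normalized count, DDX21 stood at 0.08 in PEN-FFW against PEN-WT.

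Pairs of libraries that leave out PEN showed smaller differences. In PEN-FFW against PEN-MUT 37 of 40 members were below the median gene, with a median of -0.17 and a range from -0.31 to 0.09. None was 20% lower, against 2.49% of tested genes, and for 33 the counting interval lay below 0, against 28.8% of tested genes. The exceptions above 0 by counting were POLR1A and TCOF1, which without centring on the median gene stood below 0, at -0.24 for POLR1A and -0.20 for TCOF1. In PEN-WT against PEN-MUT 34 were below the median gene (median -0.07), none was 20% lower, against 0.596%, and 22 had an interval below 0, against 19.5%. Members had a median level of 4136 normalized counts, against 1091 over all tested genes, and higher counts give narrower intervals.

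PEN-FFW and PEN-WT, which differ in the peptide sequence carried by penetratin, were compared at the same dose and time. Under PEN-FFW 33 members were below the median gene relative to PEN-WT, with a median of -0.07 and a range from -0.29 (GAR1) to 0.10 (POLR1A). None was 20% lower, against 1.29% of tested genes, and 21 had a counting interval below 0, against 23.6%. GAR1 stood at -0.29 (interval -0.44 to -0.14), NCL at -0.28 (-0.30 to -0.26), WDR12 at -0.22 (-0.30 to -0.15) and POLR1C at -0.20 (-0.29 to -0.10). For 17 members the interval held 0, among them POLR1B (-0.07 to 0.08), DDX21 (-0.04 to 0.02) and NOP16 (-0.15 to 0.04). POLR1A (0.06 to 0.15) and TCOF1 (0.04 to 0.14) were higher under PEN-FFW relative to the median gene, and without centring they stood at -0.20 (POLR1A) and -0.21 (TCOF1). With 6 pairs of libraries compared and 1 library each, no p-value could be computed or adjusted for any pair.

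**Figure D3:**
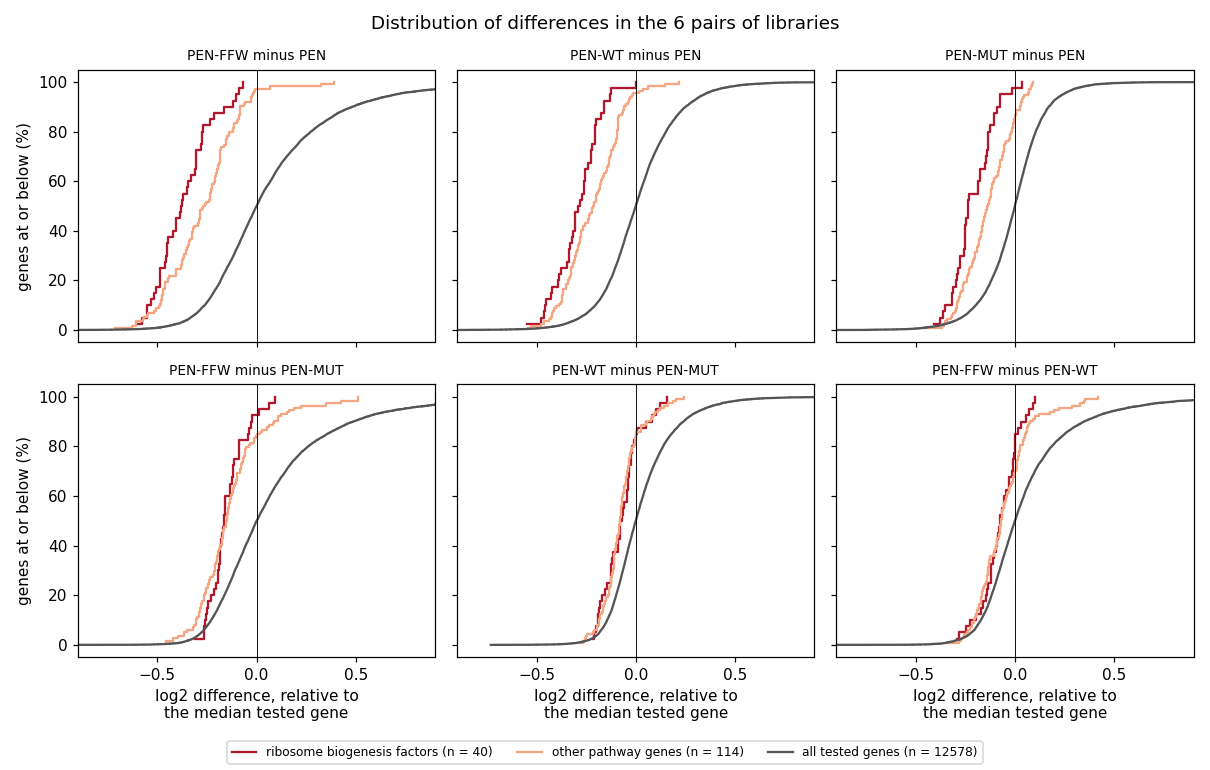
Cumulative share of genes (%) against the log2 difference relative to the median tested gene in the 6 pairs of libraries, for the 40 factors, the 114 other pathway genes and all 12578 tested genes. Against PEN the factors lie left of all tested genes, with medians of -0.38 under PEN-FFW, -0.29 under PEN-WT and -0.24 under PEN-MUT, and the pairs without PEN have medians of -0.17 (PEN-FFW minus PEN-MUT), -0.07 (PEN-WT minus PEN-MUT) and -0.07 (PEN-FFW minus PEN-WT).

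Other genes of the pathway were lower too, with a few exceptions. A list of 114 further ribosome biogenesis genes, all tested, had 111 below the median gene under PEN-FFW against PEN, 109 under PEN-WT and 97 under PEN-MUT. Its median was -0.26 with 45 genes at least 20% lower under PEN-FFW, -0.21 with 29 under PEN-WT and -0.14 with 6 under PEN-MUT. Over all tested genes 5.67% were so under PEN-FFW, 3.53% under PEN-WT and 3.14% under PEN-MUT, and the 6 genes under PEN-MUT lie close to that share. The lowest under PEN-FFW was MKI67IP, a nucleolar partner of the proliferation antigen Ki-67, with 856 normalized counts under PEN-FFW, 1202 under PEN-WT, 1364 under PEN-MUT and 1703 under PEN (-0.71 ± 0.06 under PEN-FFW). It was followed by MAK16 (-0.63), WDR3 (-0.61), DCAF13 (-0.61) and ISG20L2 (-0.57).

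Only 2 of the 114 were 25% higher under PEN-FFW than under PEN relative to the median gene, against 17.0% of tested genes. TAF1C, a subunit of the selectivity factor that directs RNA polymerase I to its promoter, had 2002 normalized counts under PEN-FFW, 1934 under PEN-WT, 1728 under PEN-MUT and 1842 under PEN (0.39 ± 0.04 under PEN-FFW). The helicase gene DDX51 had 1606 under PEN-FFW, 1482 under PEN-WT, 1384 under PEN-MUT and 1546 under PEN (0.33 ± 0.05 under PEN-FFW). Without centring, TAF1C stood at 0.12 and DDX51 at 0.05 under PEN-FFW against PEN. Relative to the same GC content they stood at 0.21 (TAF1C) and 0.24 (DDX51), short of 25% higher. The next highest were NAF1 (0.07 ± 0.11), DDX55 (-0.01) and the giant ATPase MDN1 (-0.01). Relative to the median gene, 4 of the list were 25% higher in PEN-FFW against PEN-MUT, against 16.5% of tested genes. In PEN-FFW against PEN-WT 4 were, against 11.2%.

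Differences from PEN also moved with gene level and transcript base composition across all tested genes. Under PEN-FFW the median difference was 0.32 in the lowest of 20 bins of mean normalized count and -0.17 in the highest, which held 7 of the 40 members. Under PEN-WT these medians were 0.08 and -0.07, and under PEN-MUT -0.02 and 0.01. Relative to genes of the same level, the median member stood at -0.30 under PEN-FFW with 15 members 20% lower than PEN (7.35% of tested genes), at -0.26 under PEN-WT with 11 (4.33%) and at -0.23 under PEN-MUT with 5 (3.02%). Under PEN-FFW 38 of the 40 remained below 0 by this setting, and the exceptions were POLR1A, then at 0.036, and UBTF, then at 0.051. By the same setting the median member stood at -0.086 under PEN-FFW against PEN-MUT and at -0.028 under PEN-FFW against PEN-WT. Relative to transcripts of the same GC content, known for 39 members, the median member against PEN stood at -0.38 under PEN-FFW, -0.30 under PEN-WT and -0.24 under PEN-MUT.

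**Figure D4:**
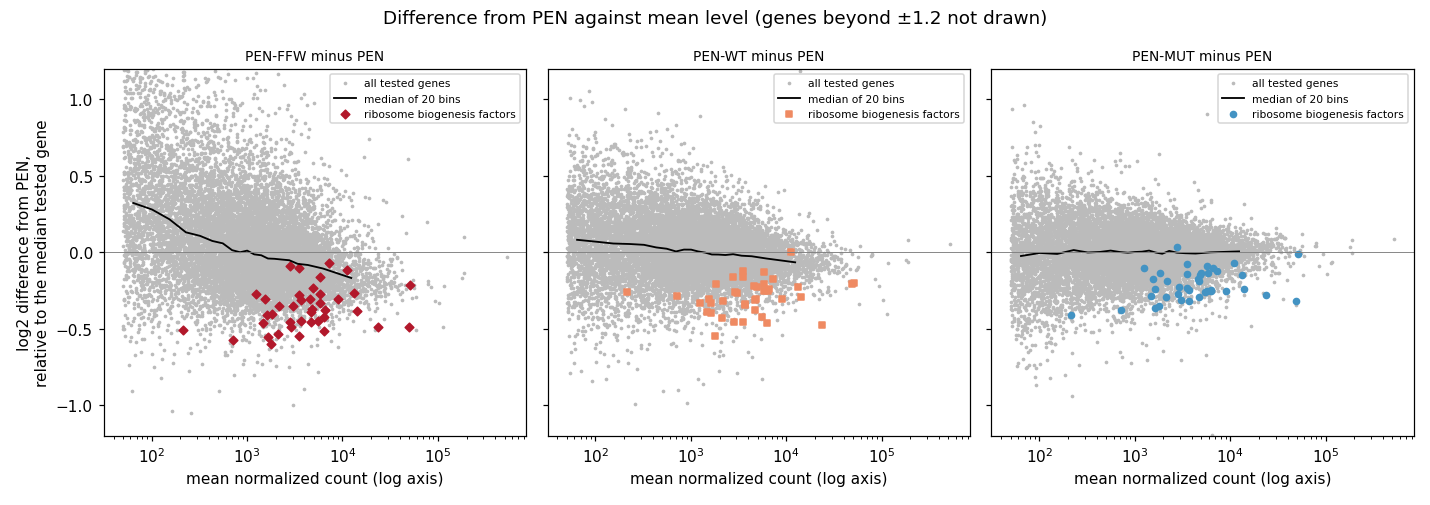
Log2 difference to the PEN library, with the median tested gene at 0, against mean normalized count (log axis) under PEN-FFW, PEN-WT and PEN-MUT, with all tested genes in grey, the median of 20 bins as a line and the 40 factors as coloured points. The line runs from 0.32 to -0.17 under PEN-FFW, and most factors lie below it in each panel.

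MYC, the transcription factor named above, was lower in the order that held for 28 of the factors, with 3054 normalized counts under PEN-FFW, 3878 under PEN-WT, 4363 under PEN-MUT and 6109 under PEN. Its differences from PEN were -0.73 ± 0.03 under PEN-FFW, -0.68 ± 0.03 under PEN-WT and -0.51 ± 0.03 under PEN-MUT, farther below PEN than any of the 40 factors in each library. Between PEN-FFW and PEN-WT it stood at only -0.04 ± 0.03. Its part in the members' levels was not tested. Small nucleolar RNA genes lie inside 9 of the 40 members, and those 9 had a median of -0.45 under PEN-FFW against PEN, against -0.35 for the other 31. Under PEN-WT these medians were -0.26 for the 9 hosts and -0.29 for the other 31, and under PEN-MUT they were -0.25 and -0.23.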

How the data were processed

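The deposited table holds log2 values for 23710 genes in 4 RNA libraries. The submitters' processing notes name STAR 2.4.0i, featureCounts 1.5.0-p1 and the build hg19, and libraries were paired-end per the labels' protocols. The sources used here give no annotation, strand setting or scaling method, so reads of overlapping genes cannot be told apart. Undoing the log2 of the deposited values gave whole reads (100% of values above the floor, within 0.1 read) times 1 factor per library (0.923 for PEN-FFW, 0.776 for PEN-WT, 1 for PEN-MUT and 0.840 for PEN), with products under 5 set to 5. Only genes whose mean normalized count reached 50 were kept (12578, 53.0%). Counting errors follow the Poisson law. The calculation, in Python 3.11.15 with numpy 2.4.6 and pandas 2.3.3, was checked on simulated reads. The members, gene lists and folds were chosen with earlier results of these data known. Members described one by one were, in each role, the 4 farthest from PEN in PEN-FFW and the nearest or highest, and the pathway list was named by its 5 lowest and 5 highest. GRCh37 positions, GC content and overlaps came from GENCODE 44, in which 20574 genes matched by symbol and 1572 by a RefSeq synonym. The 3 chromatin samples are not analysed here.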

Additional observations from a re-analysis of the deposited data

How the results depend on the processing

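Of the medians and counts over the 40 factors, 82 changed little across settings and 26 moved, and no median changed direction. Single factors did change sign under at least 1 setting: 2 in PEN-FFW against PEN (POLR1A and UBTF, relative to genes of the same level), 1 in PEN-WT against PEN (UBTF), 1 in PEN-MUT against PEN (NPM1), 10 in PEN-FFW and 8 in PEN-WT against PEN-MUT, and 16 in PEN-FFW against PEN-WT. Without centring on the median gene, the median member was at -0.65 under PEN-FFW against PEN with 40 called at 20% lower (41.3% of tested genes), at -0.46 with 36 against PEN-MUT (45.6%), and at -0.37 with 27 against PEN-WT (44.8%). With no filter on low values the same pairs gave -0.65 with 40 (23.3%), -0.46 with 36 (25.7%) and -0.33 with 22 (18.7%). Against PEN and PEN-MUT these medians equal those without centring, since nothing was then subtracted, so they are not a separate result. Why the median tested gene was lower under PEN-FFW as deposited was not tested. Relative to genes of the same level, PEN-FFW gave -0.30 with 15 called against PEN (7.35%) and -0.086 at the median against PEN-MUT, with 1 called against PEN-WT (3.08%). Relative to the same GC content 1 was called against PEN-MUT (3.02%) and 1 against PEN-WT (1.44%). A call at 1.5-fold left 1 member under PEN-FFW (0.437%), 0 under PEN-WT (0.374%) and 0 under PEN-MUT (0.350%) against PEN. A call at 1.1-fold gave 37 under PEN-WT (18.5%) and 30 under PEN-MUT (16.9%) against PEN, 24 under PEN-FFW (24.5%) and 10 under PEN-WT (11.1%) against PEN-MUT, and 9 under PEN-FFW against PEN-WT (15.4%). A pseudocount of 1, no pseudocount, a minimum of 200 and leaving out the 14 members with a pseudogene copy or an overlapping gene moved none of these. No paired analysis was possible because each peptide has 1 library, and no replicate could be left out. Depth limits PPAN most, whose intervals against PEN-MUT and PEN-WT hold 0.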

Other observations

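RNA polymerase III and RNA exosome genes were mostly below the median gene under PEN-FFW against PEN too. The lists below were chosen after the values of the 40 factors were seen. RNA polymerase III, which makes the smallest ribosomal RNA and transfer RNAs, had 10 of 11 tested subunits below the median gene under PEN-FFW against PEN (median -0.21), 10 under PEN-WT (-0.11) and 9 under PEN-MUT (-0.12). POLR3K had 649 normalized counts under PEN-FFW, 831 under PEN-WT, 860 under PEN-MUT and 1035 under PEN, a difference of -0.40 under PEN-FFW. POLR3A, the largest subunit, stood at -0.06 under PEN-FFW, where POLR1A stood at -0.07.

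The RNA exosome, which trims ribosomal RNA precursors, had 9 of 11 tested genes below the median gene under PEN-FFW against PEN (median -0.28), 7 under PEN-WT (-0.18) and 7 under PEN-MUT (-0.06). Its median in PEN-FFW against PEN-MUT was -0.21, where that of the 40 factors was -0.17. EXOSC4 and EXOSC5 were both at -0.42 under PEN-FFW. EXOSC10, its nuclear nuclease, was at 0.06 under PEN-FFW, 0.17 under PEN-WT and 0.10 under PEN-MUT. At least 20% lower under PEN-FFW were 4 exosome genes and 3 polymerase III subunits, against 5.67% of tested genes. Among them EXOSC9 (-0.3223 ± 0.05) and POLR3B (-0.3222 ± 0.04) only just passed the cut of -0.3219.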
